A study of Mus musculus with 15 samples.

Results

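The 10 genes described are core parts of the Notch pathway: the receptors Notch1, Notch2 and Notch3, the ligands Jag1 and Jag2, the nuclear factor Rbpj, and the target genes Hes1, Hey1, Hey2 and Heyl. They were chosen by symbol, as the probes that the authors' log2 table names for these genes, and this gave 10 of 15059 named genes and 11 of 20855 gene probes. Rbpj had 2 probes there and each other gene had 1. RNA was measured in mouse cumulus cells, the somatic cells around the oocyte, on 15 Agilent 1-colour arrays, 5 at each of 3 stages. The animals were B6CBAF1/J mice at every stage, and each array held RNA from a separate pool of several mice, so that the spread is between pools. The NC1 stage was 3-week-old prepubertal mice without hormone treatment, whose unexpanded complexes held prophase I oocytes that could mature but are labelled as developmentally incompetent. The C1 stage was 8-week-old adults without hormone treatment, with unexpanded complexes and competent prophase I oocytes. The C2 stage was 8-week-old adults after superovulation with PMSG and hCG, with expanded complexes taken from the oviduct and competent metaphase II oocytes. Cumulus cells were separated by pipetting at NC1 and C1 and with 300 µg/ml hyaluronidase at C2. Age is therefore tied to the step from NC1 to C1, while hormones, site of collection and enzyme are tied to the step from C1 to C2, and these cannot be told apart.

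Notch receptors sit in the cell membrane and are switched on by a ligand of the Jagged or Delta type on a neighbouring cell. Binding is followed by cleavage by ADAM proteases and then by the gamma-secretase complex, and the freed intracellular part of the receptor enters the nucleus. There it joins RBPJ, the DNA-binding protein of the pathway, which holds target genes silent with corepressors in the absence of Notch and activates them with Mastermind proteins in its presence. The best known targets are the HES and HEY genes, which code for basic helix-loop-helix repressors. In the mouse ovary, JAG1 on oocytes and NOTCH2 on granulosa cells are known for their part in the formation of follicles, and NOTCH3 is best known from pericytes and vascular smooth muscle.

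Values are log2 signals from which the array's own median over valid probes was subtracted, a valid probe being one that stood well above background in 4 or 5 of the 5 arrays of each stage. They compare arrays for 1 probe and not 1 probe with another. Valid probes numbered 17323 and included 7 of the 10 genes, while Notch3, Jag2 and Hes1 fell short in at least 1 stage. These 3 genes were fitted across the 20855 probes of the table. A change was called at an adjusted p under 0.01 in a limma model of all 15 arrays. Because whole cell pellets were measured, fewer cells of a type and less RNA per cell cannot be told apart.

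Gene probes well above background ranged from 18366 to 24493 per array. Some arrays stood apart from their stage. C1 replicate 4 carried genes of the ovulatory response, with Tnfaip6, which codes for a protein of the expanded cumulus matrix, at 2.70 against -3.77 to -2.90 in the other C1 arrays. C2 replicates 4 and 5 had little oocyte RNA, with a summed oocyte marker signal of 0.693 and 0.795 against 13.6 to 17.3 in the other C2 arrays. Where leaving out C1 replicate 4, or C2 replicates 4 and 5 together, changed a call printed for a named gene, the value without them is given. Of the granulosa and cumulus markers, 9 of 10 were valid, and Foxl2, the transcription factor that defines granulosa cells, did not pass the test between C1 and C2 (change of 0.03). A total of 8 of these 9 markers were lower at C2 than at C1, as were 22.2% of all valid probes. Ovulated cumulus markers summed to 24.96 to 39.4 at C2 and to 0.98 to 1.85 in the C1 arrays other than replicate 4.

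Between the prophase I stages none of the 7 valid Notch genes passed the test, whereas 2.52% of all valid probes did. Hey1, Heyl and Rbpj, 3 of the 7, had an unadjusted p under 0.05 in the same model, as did 16.8% of all valid probes. By direction, 1.75% of valid probes were higher and 0.768% lower at C1. From C1 to C2 the test called Hey2 and Rbpj, 2 of the 7, and both fell. The background share of calls was 47.6%, made up of 25.4% that rose and 22.2% that fell, so that 2 of 7 lies below it. The background split depended on the scaling: of the probes called between C1 and C2, 53.3% were higher at C2 here, 74.7% with the authors' scaling, which moved the median change of all valid probes to 0.33, and 38.9% with spike-in scaling. Of those called between NC1 and C1, 69.6% were higher at C1 here and 91.6% with spike-in scaling, and of those called between NC1 and C2, 51.6% were higher at C2 here and 65.3% with the authors' scaling. Between NC1 and C2 the called genes were again Hey2 and Rbpj, both lower at C2, where 51.5% of all valid probes were called (26.5% higher and 24.9% lower) and 48.9% did not overlap. Both of these comparisons use the C2 arrays. Of the 3 genes that were not valid, Jag2 fell and Hes1 rose between C1 and C2 in the test across the whole table, where 48.6% of the table's probes were called, 24.2% higher and 24.5% lower. From NC1 to C2, Jag2 fell and Hes1 rose, where 52.3% of the table's probes were called (25.4% higher and 26.9% lower) and 51.0% did not overlap. Between NC1 and C1 neither Jag2 nor Hes1 was called, against 2.93% of the table's probes. Nearly all of the table's probes, 20844 of 20855, were well above background in at least 4 of 5 arrays of at least 1 stage, so a gene detected in 1 stage entered the table through that stage. Notch3 entered through C1 only, and its differences are given as a description with no test. Jag2 entered through NC1 and C1, the stages where it was high, so its calls at C2 are not free of this filter. The F-test over the 3 stages called Hey2, Heyl and Rbpj, 3 of 7, beside 51.6% of all valid probes.

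**Figure D1:**
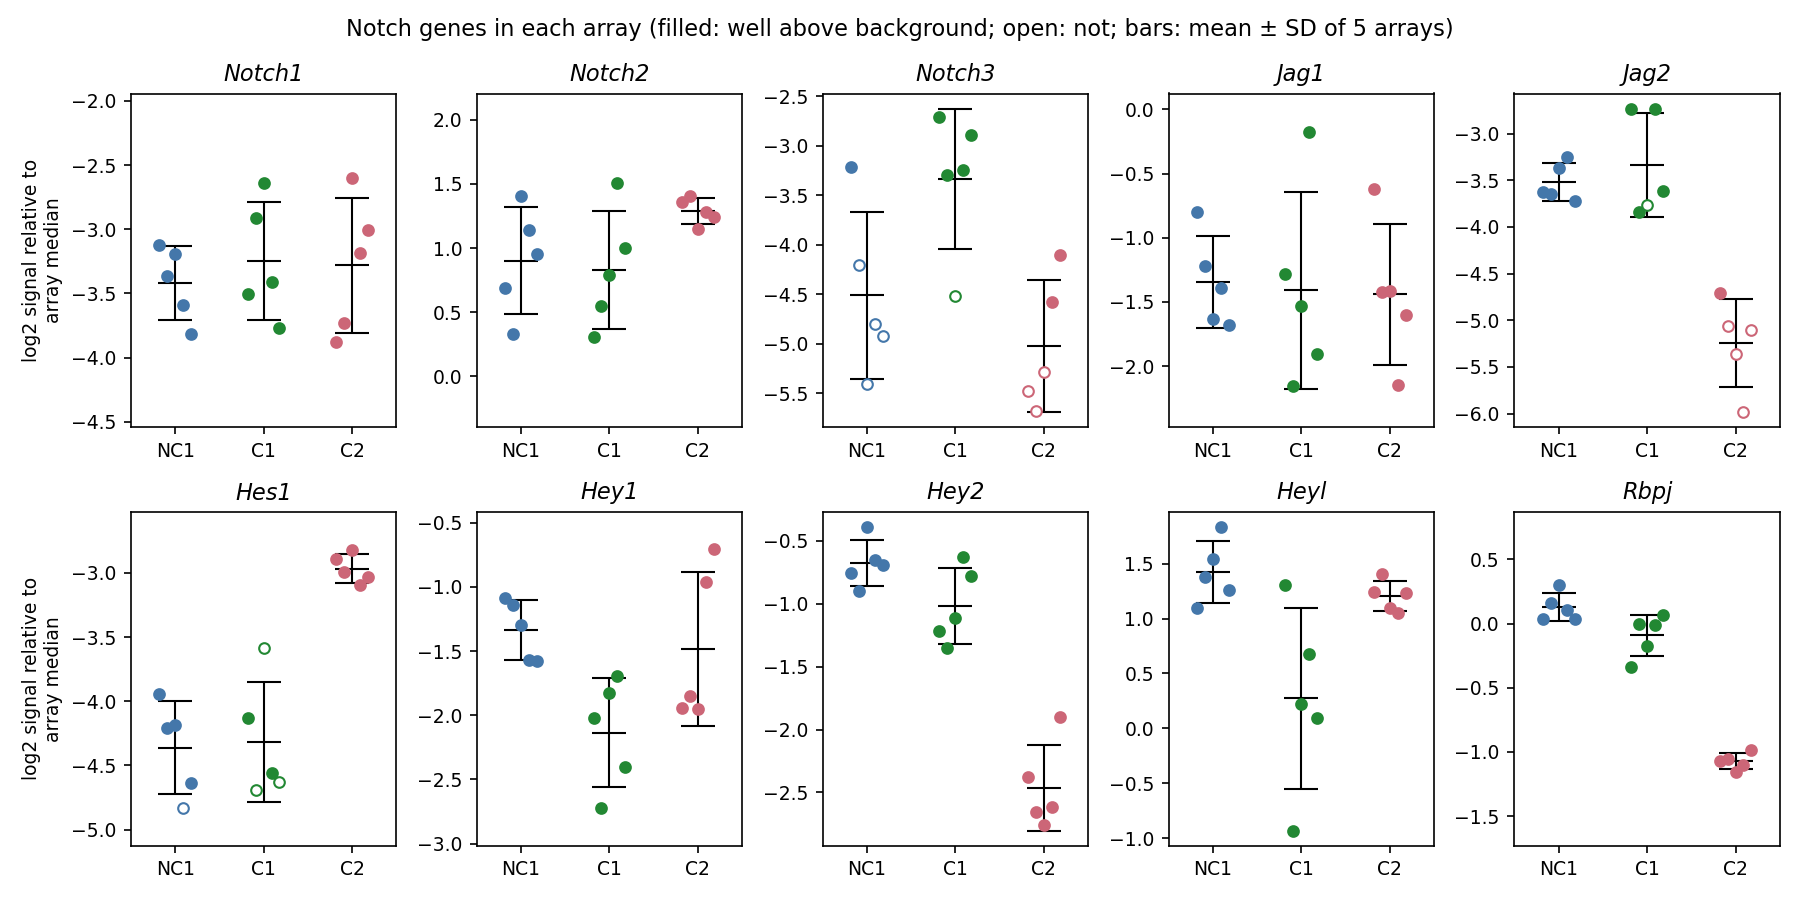
Each panel plots 1 gene, with the log2 signal relative to the array median on the vertical axis and the 3 stages on the horizontal axis; points are the 5 arrays of a stage, filled where well above background and open where not, and bars are the mean ± SD. The C2 arrays of Rbpj, Hey2 and Jag2 lie below all NC1 and C1 arrays, the C2 arrays of Hes1 lie above them, and the stages of Notch1 and Jag1 overlap.

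Rbpj, the factor through which the Notch receptors reach DNA, had stage means ± SD (n = 5 arrays) of 0.13 ± 0.11 (NC1), -0.09 ± 0.16 (C1) and -1.07 ± 0.06 (C2). The NC1 arrays held 0.03, 0.16, 0.30, 0.11 and 0.04 in replicate order. The C1 arrays held -0.34, -0.01, -0.17, -0.01 and 0.06. The C2 arrays held -1.07, -1.06, -1.16, -1.1 and -0.99, all below every NC1 and C1 array, whereas 43.9% of valid probes and 44.9% of the table probes did not overlap between C1 and C2. Rbpj fell by 0.98 (SE 0.10) between C1 and C2, which is 1.97-fold (adjusted p = 2.04e-07, limma). Between NC1 and C2 it fell by 1.20 (SE 0.10; adjusted p = 1.35e-08), or 2.30-fold. The change of -0.22 between NC1 and C1 did not pass the test (adjusted p = 0.250, limma), and all 4 slides had C1 below NC1. The fall between C1 and C2 was seen on each of the 4 slides, by -1.22 to -0.82. A second Rbpj probe was much dimmer and was well above background in 4 of 5 arrays at each stage. Its change of -0.53 (SE 0.32) between C1 and C2 had the same direction but was not called (adjusted p = 0.171).

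Hey2, a repressor of the HEY family known from artery and heart development, had stage means of -0.68 ± 0.18 (NC1), -1.02 ± 0.30 (C1) and -2.46 ± 0.34 (C2). At NC1 the arrays held -0.75, -0.89, -0.39, -0.65 and -0.69. At C1 they held -1.22, -1.35, -1.11, -0.63 and -0.78, which overlaps NC1. At C2 they held -2.38, -2.65, -2.76, -2.61 and -1.90, and even the highest, replicate 5, was below every other array. Hey2 fell by 1.44 (SE 0.17; adjusted p = 1.87e-06, limma), or 2.72-fold, between C1 and C2. From NC1 to C2 the fall was 1.78 (SE 0.17; adjusted p = 1.25e-07), or 3.44-fold. Without C2 replicates 4 and 5, a setting chosen after the data were seen, Hey2 fell by 1.58 between C1 and C2 (adjusted p = 2.9e-06). Within slides the difference between C2 and C1 ran from -2.0 to -0.62.

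**Figure D2:**
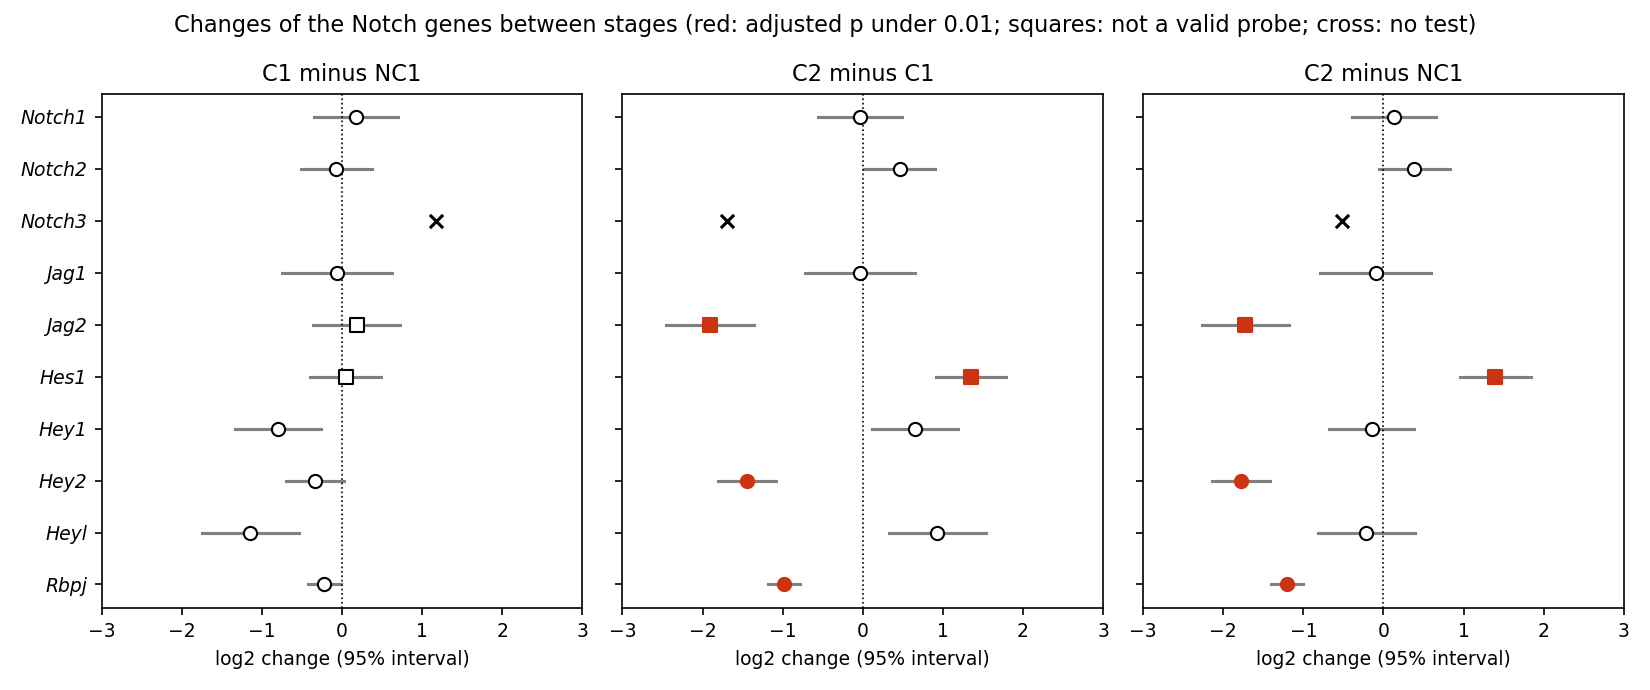
The 3 panels plot the log2 change of each of the 10 genes between stages with its 95% interval; red marks an adjusted p under 0.01, circles are valid probes, squares are genes tested across the whole table, and the cross is Notch3, shown as a difference with no test. Between NC1 and C1 no gene is red, between C1 and C2 Rbpj, Hey2 and Jag2 are red below 0 and Hes1 is red above it, and Heyl and Hey1 lie below 0 in the first panel and above it in the second.

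The promoters of Rbpj and Hey2, the 2 valid genes called at C2, are shown because RBPJ binds DNA through the core TGGGAA, often within GTGGGAA, and Hey2 is a known target. Sequences are from the RefSeq promoter table of build GRCm38.p6, which spans 250 bases before to 50 bases after the annotated start. It held windows for 7 of the 10 genes, and Hes1, Hey1 and Heyl were not matched. Both motifs were searched on both strands, and every GTGGGAA also counts as a TGGGAA. The Hey2 stretch lies at chr10:30842781-30843033 on the minus strand and ends just past the start. The Rbpj stretch lies at chr5:53590096-53590345 on the plus strand and ends at the base before the start. Capitals mark GTGGGAA or its reverse complement in Hey2, and TGGGAA or its reverse complement in Rbpj.
Hey2: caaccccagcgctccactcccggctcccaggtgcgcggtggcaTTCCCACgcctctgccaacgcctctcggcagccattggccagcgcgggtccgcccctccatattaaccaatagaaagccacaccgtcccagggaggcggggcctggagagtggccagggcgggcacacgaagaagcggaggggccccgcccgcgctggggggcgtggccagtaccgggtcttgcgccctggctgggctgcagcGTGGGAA
Rbpj: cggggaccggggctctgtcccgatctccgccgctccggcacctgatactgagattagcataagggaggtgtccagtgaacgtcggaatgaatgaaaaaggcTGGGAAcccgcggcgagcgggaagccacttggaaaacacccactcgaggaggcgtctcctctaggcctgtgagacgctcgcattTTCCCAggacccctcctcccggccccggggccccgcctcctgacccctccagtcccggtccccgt
The Hey2 motifs begin 207 and 4 bases before the start, the second one spanning it. The Rbpj cores begin 149 and 65 bases before the start, and neither is preceded by G to give the longer form. The window of a second annotated Rbpj start held 1 core, the same site as the one 65 bases before the first start. Neither motif was found in the windows of Notch1, Notch2, Notch3, Jag1 or Jag2. Outside the 10 genes, Hes5 held GTGGGAA 226 and 83 bases before its start and Hes7 held it 180 bases before. The changes of Hes5 and Hes7 are given below. Among all 32851 windows, 25.6% hold TGGGAA and 6.38% hold GTGGGAA, so these matches describe the letters only and do not show binding.

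Heyl, a HEY repressor known from vascular smooth muscle, had stage means of 1.42 ± 0.28 (NC1), 0.27 ± 0.82 (C1) and 1.21 ± 0.14 (C2). The NC1 arrays held 1.09, 1.38, 1.54, 1.83 and 1.26. The C1 arrays held 1.3, -0.93, 0.22, 0.68 and 0.09. The C2 arrays held 1.24, 1.41, 1.1, 1.05 and 1.23. Thus 4 of 5 C1 arrays were below every NC1 and C2 array, and C1 replicate 1 lay among them. The change was -1.15 (SE 0.29) between NC1 and C1 (adjusted p = 0.0252, limma) and 0.93 (SE 0.29) between C1 and C2 (adjusted p = 0.0102), and neither passed the threshold. Without C1 replicate 1 both passed it, at -1.40 (adjusted p = 0.00284) and 1.19 (adjusted p = 0.000635). Without C1 replicate 4 the second change was 1.03 (adjusted p = 0.00815). With the authors' scaling it was 1.24 (adjusted p = 0.00319). On all 4 slides Heyl was lower at C1 than at NC1, by -1.32 to -0.86, and higher at C2 than at C1, by 0.55 to 1.05. Between NC1 and C2 the change was -0.21, with a 95% interval from -0.82 to 0.39.

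Hey1, the third HEY repressor, had stage means of -1.33 ± 0.23 (NC1), -2.14 ± 0.42 (C1) and -1.48 ± 0.60 (C2). The NC1 arrays held -1.09, -1.14, -1.3, -1.57 and -1.57. The C1 arrays held -2.03, -2.73, -1.83, -1.70 and -2.40. All C1 arrays were below all NC1 arrays, as for 5.98% of valid probes, but the change of -0.80 (SE 0.25) was not called (adjusted p = 0.0863, limma). The C2 arrays fell into 2 levels, -1.94, -1.85 and -1.95 in replicates 1 to 3 and -0.96 and -0.71 in replicates 4 and 5. Replicates 4 and 5 are the arrays with little oocyte RNA. They also had the highest C2 sums of the 9 endothelial markers, 2.68 and 2.58 against 1.81 to 2.27. This came from Cdh5, at 0.22 and 0.17 against -0.98 to -0.73, and without Cdh5 their endothelial sums were not the highest. Replicates 4 and 5 had the highest C2 sums of the oviduct epithelium markers as well, 18.4 and 16.1 against 10.01 to 14.6. The same held for the granulosa and cumulus markers, 54.5 and 57.0 against 43.7 to 46.1. Their pericyte and smooth muscle sums were the lowest, 5.60 and 5.83 against 6.41 to 7.44. The part of these differences in the Hey1 values was not tested. The change of 0.65 (SE 0.25) between C1 and C2 was not called (adjusted p = 0.0354), and without these 2 arrays it was 0.22 (adjusted p = 0.396). With the authors' scaling it was 0.96 (adjusted p = 0.00551).

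Hes1, the most widely studied HES repressor, was dim before ovulation, being well above background in 4 of 5 NC1 arrays, 2 of 5 C1 arrays and 5 of 5 C2 arrays. The NC1 arrays held -3.95, -4.21, -4.19, -4.83 and -4.63. The C1 arrays held -4.13, -4.69, -3.58, -4.56 and -4.63. The C2 arrays held -2.89, -3.0, -2.82, -3.09 and -3.03, above every array of the other stages. Hes1 rose by 1.35 (SE 0.21; adjusted p = 3.98e-05, limma across the table) between C1 and C2 and by 1.40 (adjusted p = 2.47e-05) between NC1 and C2. The size of these rises is uncertain because the lower levels lie at or near background. Between NC1 and C1 the change was 0.04, with a 95% interval from -0.40 to 0.48. After normexp background correction, which shrinks changes near background, the rise between C1 and C2 was 0.69 (adjusted p = 0.000928). Hes1 moved up at C2 while Hey2 moved down, with Hey1 and Heyl short of the threshold.

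Jag2, a transmembrane ligand, was well above background in 5 of 5 NC1 arrays, 4 of 5 C1 arrays and only replicate 1 at C2. The NC1 arrays held -3.62, -3.64, -3.37, -3.25 and -3.73. The C1 arrays held -2.73, -3.84, -3.76, -2.74 and -3.62. The C2 arrays held -4.71, -5.07, -5.36, -5.98 and -5.11, below every NC1 and C1 array. Jag2 fell by 1.91 (SE 0.26; adjusted p = 1.05e-05, limma across the table) between C1 and C2. From NC1 to C2 it fell by 1.72 (SE 0.26; adjusted p = 2.49e-05). These calls are not free of the filter, since Jag2 entered the table through NC1 and C1, where it was high. No fold is given, since 4 of 5 C2 arrays were not well above background. With normexp the fall from C1 to C2 was 0.98 (adjusted p = 1.6e-06). Jag1, the ligand known from oocytes, was well above background in every array and showed no called change. Its arrays ran from -1.68 to -0.80 at NC1, from -2.16 to -0.17 at C1 and from -2.15 to -0.62 at C2. The highest Jag1 value was in C1 replicate 4. The change between C1 and C2 was -0.03 (95% interval -0.72 to 0.66) and between NC1 and C1 it was -0.07 (-0.76 to 0.62). Without C2 replicates 4 and 5, the arrays with little oocyte RNA, the change of Jag1 between C1 and C2 was 0.26 (adjusted p = 0.582). Without C1 replicate 4 it was 0.28 (adjusted p = 0.387), and the change between NC1 and C1 was -0.38 (adjusted p = 0.517).

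Among the receptors, Notch1 and Notch2 were well above background in every array, and neither had a called change. Notch1 ran from -3.82 to -3.12 at NC1, from -3.77 to -2.64 at C1 and from -3.88 to -2.60 at C2. Its changes were 0.17 (95% interval -0.36 to 0.70) between NC1 and C1 and -0.03 (-0.56 to 0.49) between C1 and C2. Notch2, the receptor known from granulosa cells, had stage means of 0.90 ± 0.41 (NC1), 0.83 ± 0.46 (C1) and 1.29 ± 0.10 (C2). The Notch2 values were 0.68, 0.33, 1.41, 1.14 and 0.95 at NC1, and 0.30, 0.55, 0.79, 1.5 and 1.0 at C1. At C2 they lay close together at 1.36, 1.41, 1.15, 1.28 and 1.24, within the range of the other stages. The change of 0.46 (SE 0.21) between C1 and C2 was not called (adjusted p = 0.0704, limma). Without C1 replicate 4, the array with ovulatory genes and the highest Notch2 value at C1, it was 0.63 and was called (adjusted p = 0.00957). Second probes of Notch1 and Notch2 on the array were not well above background except for Notch2 in 1 C1 array.

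Notch3 was measured near background, in 1 of 5 NC1 arrays, 4 of 5 C1 arrays and 2 of 5 C2 arrays. The NC1 arrays held -3.21, -4.20, -5.41, -4.80 and -4.92, and only the first was well above background. The C1 arrays held -2.71, -3.29, -4.52, -3.24 and -2.89. The C2 arrays held -5.48, -5.68, -5.28, -4.58 and -4.10, and the groups overlapped in C1 replicate 3. The stage means differed by 1.18 between NC1 and C1 and by -1.69 between C1 and C2. The second difference was -1.17 with quantile normalization and -1.38 with the authors' scaling. It was -2.15 without C2 replicates 4 and 5, the 2 C2 arrays where Notch3 was detected. Over the 29 alternatives it ran from -2.15 to -0.84.

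Like Notch3, the 8 markers of pericytes and smooth muscle had lower levels at C2 than at C1, but unlike Notch3 their sum was higher at NC1 than at C1. Their summed signal was 13.5 to 25.96 at NC1, 10.02 to 13.3 at C1 and 5.60 to 7.44 at C2. Of the 5 valid ones, 3 fell between C1 and C2 and none rose, where 22.2% of all valid probes fell and 25.4% rose. Pdgfrb, the receptor that marks pericytes, fell by 3.05 and Acta2, smooth muscle actin, by 4.79. Rgs5, Myh11 and Des were not well above background in any C2 array, and Rgs5 and Des were not in any NC1 array either. Endothelial markers summed to 6.03 to 8.31 at C1 and 1.81 to 2.68 at C2, with Esam and Egfl7 lower and Cdh5 higher at C2. Tie1, Tek and Emcn were not well above background in any C2 array. Of these, Tek was also not well above background in any C1 array, and neither Tie1 nor Tek was in any NC1 array. The 6 theca and stroma markers fell from a sum of 7.28 to 13.8 at C1 to 0.421 to 0.593 at C2. All 4 valid ones were lower, again beside 22.2% of all valid probes. The pericyte, endothelial and theca sums were also higher at both prophase I stages than at C2, as were Jag2, Hey2 and Rbpj. The granulosa and cumulus sum had the same pattern, with 261 to 372 at NC1, 281 to 315 at C1 and 43.7 to 57.0 at C2. The sum of the 6 oviduct epithelium markers went the other way, from 4.26 to 6.59 at C1 to 10.01 to 18.4 at C2, beside the rise of Hes1. Of its 4 valid markers Krt8 rose by 1.3, Epcam and Tppp3 fell by 1.05 and 1.01, and Ovgp1 was not called, while Pax8 was not well above background in any array. Red blood cell markers summed to 9.69 to 100.6 at NC1 and 1.81 to 7.50 at C1. The part of any of these lists in the results was not tested.

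**Figure D3:**
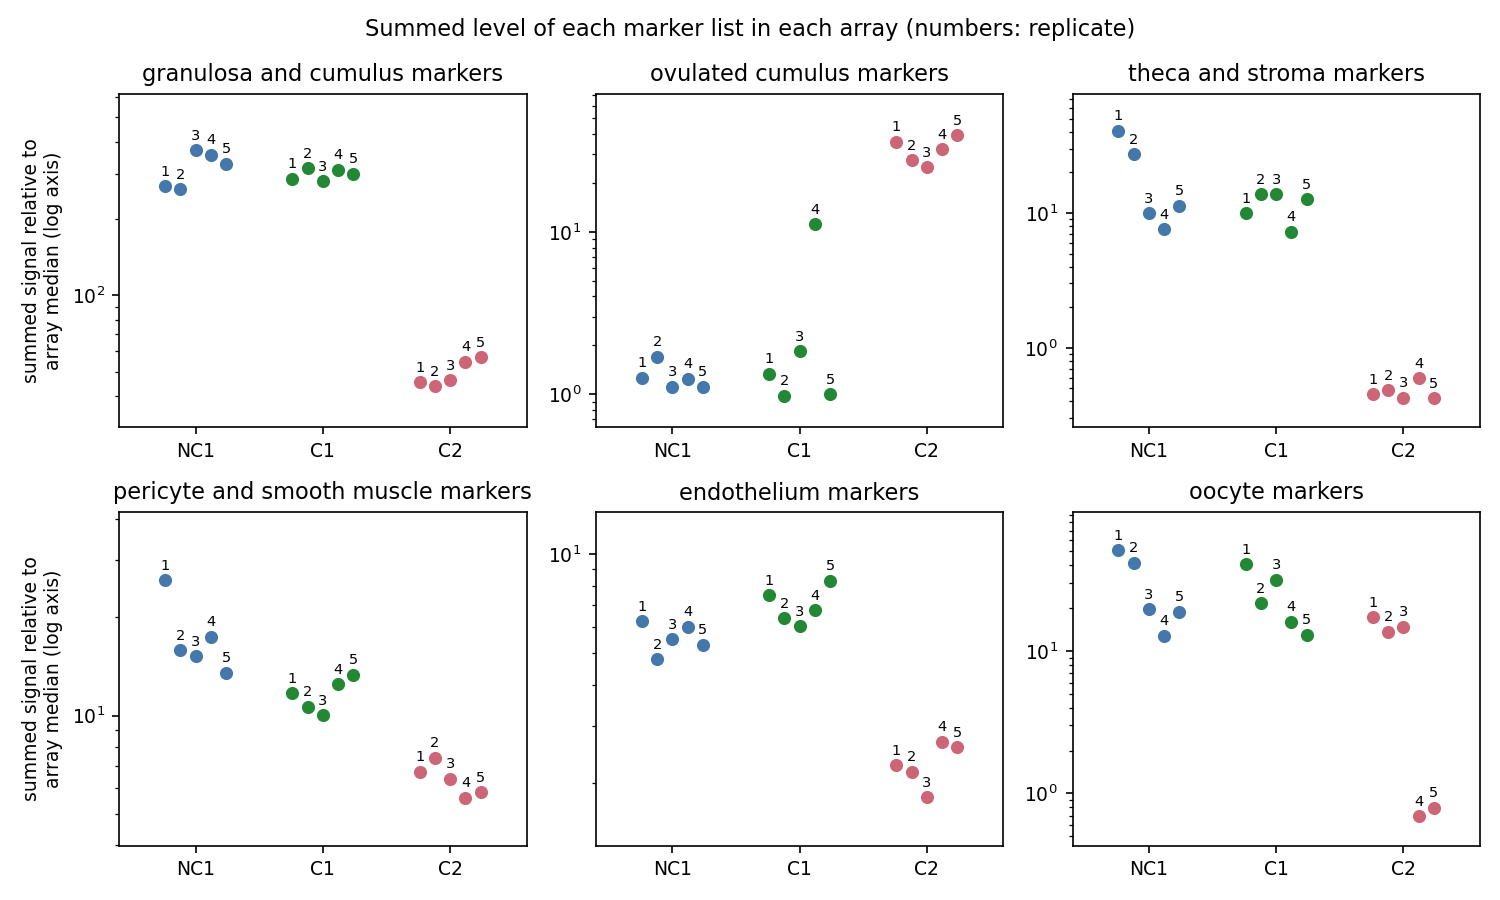
Each panel plots, on a log axis, the summed linear signal of 1 marker list relative to the array median for the 15 arrays by stage, with the replicate number above each point. Theca and stroma, pericyte and smooth muscle, and endothelium markers are lower in all C2 arrays than in all C1 arrays, C1 replicate 4 has ovulated cumulus markers at 11.1, and C2 replicates 4 and 5 have oocyte markers under 1.

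All 3 stages were on each of the 4 slides, so stages could be compared within a slide. Between C1 and C2, Rbpj, Hey2, Jag2 and Notch3 were lower on 4 of 4 slides, and Hes1 and Heyl were higher on 4 of 4. Notch2, Jag1 and Hey1 were higher on 3 slides and lower on 1, and Notch1 was divided 2 and 2. With slide as a block, Rbpj (-1.0, adjusted p = 2.66e-06), Hey2 (-1.46, adjusted p = 1.87e-05), Jag2 (-1.91, adjusted p = 9.93e-05) and Hes1 (1.37, adjusted p = 0.000296) were called. The F-test then called 2 of the 7 valid genes, Hey2 and Rbpj.

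**Figure D4:**
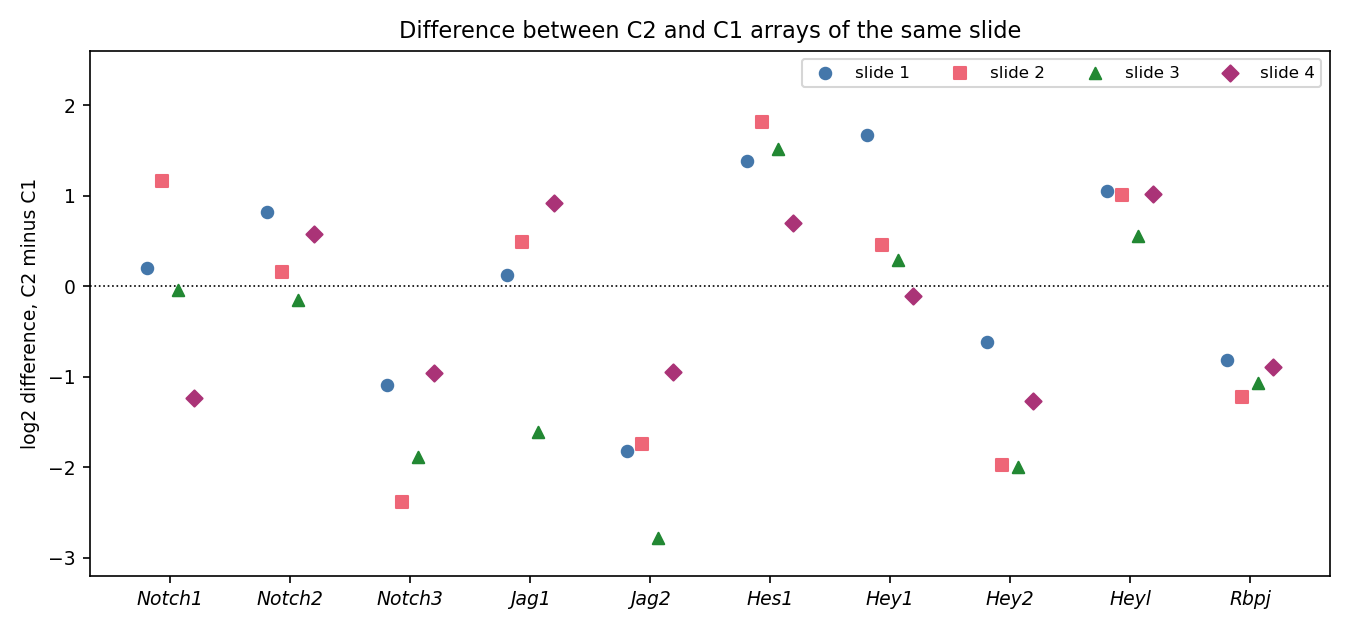
For each of the 10 genes, the vertical axis gives the difference between the mean of the C2 arrays and the mean of the C1 arrays of the same slide on the log2 scale, with 1 symbol for each of the 4 slides. All 4 symbols lie below 0 for Notch3, Jag2, Hey2 and Rbpj and above 0 for Hes1 and Heyl, and those of Notch1 and Jag1 spread over both sides.

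Of 68 other genes listed by role, called pathway genes here, 67 had a probe and 53 were valid. The list also held 12 genes taken by family only, the other HES, HEY and ID genes. Between NC1 and C1, 4 of the 53 rose and none fell, which is 7.55% against 2.52% of all valid probes. The 4 were Tle2, Tle3, Bhlhe40 and Id2, of which Bhlhe40 and Id2 were listed by family. Between C1 and C2, 24 rose and 7 fell, which is 58.5% against 47.6%, with a median change of 0.32 against 0.02 for all valid probes. Between NC1 and C2, 21 rose and 10 fell, which is 58.5% against 51.5%, with a median of 0.31 against -0.01. Without C2 replicates 4 and 5 the counts were 20 and 6 between C1 and C2 and 18 and 8 between NC1 and C2. The split depended on the scaling, as it was 25 higher and 2 lower between C1 and C2 with the authors' scaling and 20 and 12 with quantile normalization. Between NC1 and C2 it was 22 and 5 with the authors' scaling.

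The corepressors, which silence target genes together with RBPJ, rose at C2 in 7 of 9 cases against C1, where 25.4% of all valid probes rose. The count was 3 of 9 with spike-in scaling, 5 of 9 with quantile normalization and 6 of 9 without C2 replicates 4 and 5, and none fell under any of the 7 scalings tried. Tle2 and Tle3, Groucho-type corepressors, rose at both steps. Tle2 had stage means of -0.53 ± 0.37 (NC1), 0.85 ± 0.37 (C1) and 1.69 ± 0.22 (C2). It rose by 1.38 (SE 0.19; adjusted p = 0.00029, limma) and then by 0.85 (SE 0.19; adjusted p = 0.0012), the second call being lost with spike-in scaling. Tle3 was -0.25 ± 0.09, 1.07 ± 0.46 and 2.73 ± 0.27 at the 3 stages. It rose by 1.31 (adjusted p = 0.00029) and then by 1.67 (adjusted p = 8.42e-07), and no array of 1 stage overlapped another stage. Spen, a corepressor that binds RBPJ directly, rose by 1.02 (adjusted p = 0.000157) between C1 and C2.

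In the nuclear complex that activates targets, 4 of 7 genes rose between C1 and C2 and none fell, against 25.4% and 22.2% of all valid probes, but with spike-in scaling only 1 of the 7 rose. The 4 were the Mastermind genes Maml1 (0.94) and Maml3 (0.96), the coactivator Snw1 (0.91) and the acetyltransferase Kat2b (1.49, adjusted p = 1.56e-05). Kat2a, another acetyltransferase, had a change of -0.40 that was not called (adjusted p = 0.0112, limma) but was called after 75th percentile scaling and quantile normalization. Of the 9 proteases that cut the receptor, 1 rose and 3 fell. Furin, which cleaves the receptor on its way to the membrane, rose by 1.1, a call lost with spike-in scaling. Adam10, the main sheddase of Notch, fell by 0.60, and the gamma-secretase genes Psen2 and Aph1b fell by 0.81 and 1.03. With the authors' scaling none of these 3 falls was called. The call of Adam10 was also lost without C1 replicate 4 (-0.55, adjusted p = 0.0195, limma) and without C2 replicates 4 and 5 (-0.65, adjusted p = 0.0182).

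Among the genes for ubiquitin ligases, trafficking and inhibitors, 8 of 14 rose between C1 and C2 and none fell, against 25.4% and 22.2% of all valid probes. The counts were 4 higher with spike-in scaling, 7 higher and 2 lower with 75th percentile scaling or quantile normalization, and 6 higher without C2 replicates 4 and 5. Neurl1a, the Neuralized ligase that promotes endocytosis of ligands, had stage means of -2.66 ± 0.48 (NC1), -1.36 ± 0.64 (C1) and 1.98 ± 0.31 (C2), a rise of 3.34 (SE 0.28; adjusted p = 3.34e-08, limma) at the second step. Its change at the first step, 1.3, fell just short of a call (adjusted p = 0.01) but was called under 8 of 29 alternatives, among them the authors' scaling and the fit without C1 replicate 4 (1.51, adjusted p = 0.00194). Numbl, related to the Notch inhibitor Numb, rose by 1.83 (adjusted p = 1.5e-07), and Dtx3l, a Deltex ligase, by 1.38 (adjusted p = 8.8e-08).

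**Figure D5:**
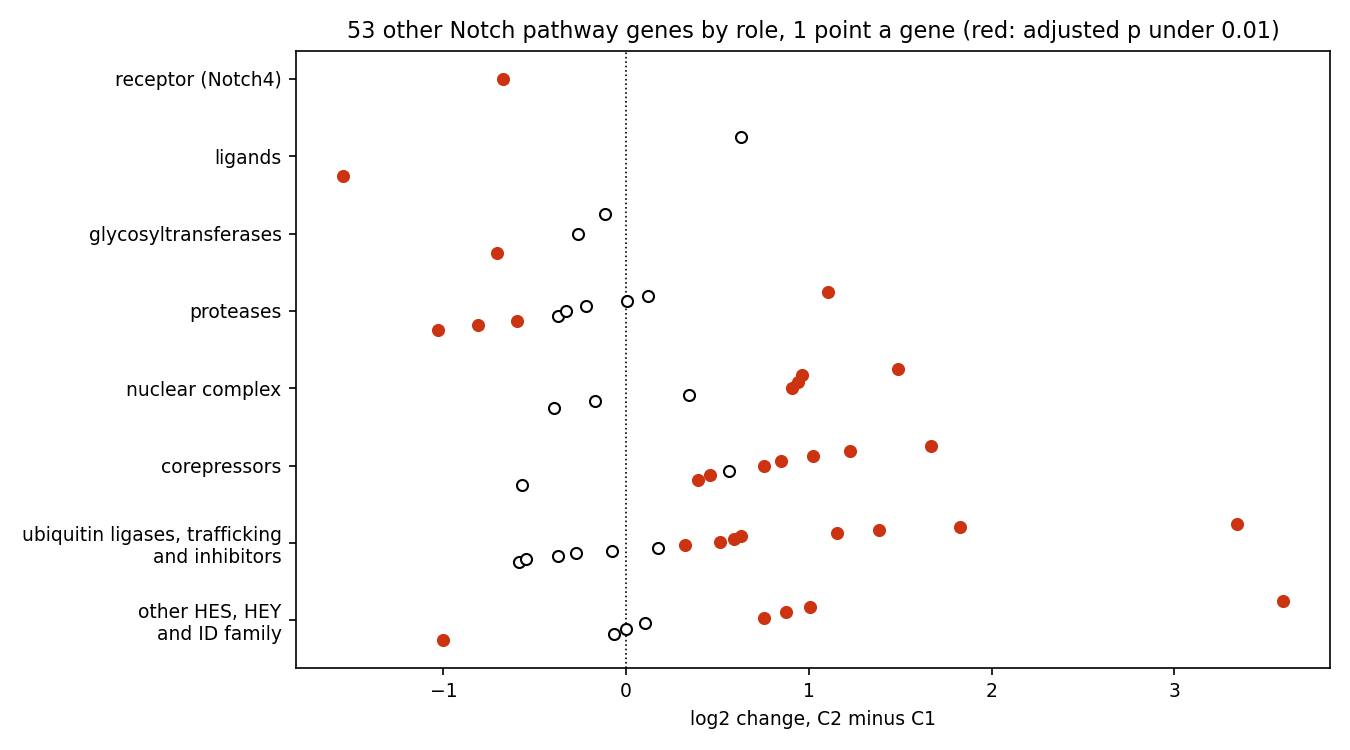
Each point is 1 of 53 other listed genes, those listed by family included, placed by its log2 change between C1 and C2 and by its role. Red marks an adjusted p under 0.01, and the vertical offset within a role only separates points. Corepressors called lie above 0, proteases lie on both sides, and the points beyond 3 are Neurl1a and Bhlhe40.

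The other receptor, Notch4, known from endothelium, had stage means of -3.26 ± 0.18 (NC1), -2.59 ± 0.27 (C1) and -3.27 ± 0.26 (C2). All C1 arrays, from -2.84 to -2.20, were above all C2 arrays, from -3.56 to -2.95, and above all NC1 arrays. Notch4 fell by 0.67 (SE 0.15; adjusted p = 0.000916, limma) between C1 and C2, a call lost with 5 of the other scalings or background corrections, where its change was -0.82 to -0.36. The change of 0.66 between NC1 and C1 was not called (adjusted p = 0.0132), but it was called without NC1 replicate 5 (0.74, adjusted p = 0.00989).

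Among the other ligands, Dlk2, a Delta-like protein without the domain that binds the receptor in classical ligands, fell by 1.55 (SE 0.20; adjusted p = 6.1e-06, limma) between C1 and C2 and by 2.13 between NC1 and C2. Its relative Dlk1 rose by 1.47 (SE 0.32; adjusted p = 0.000727) between NC1 and C2. Dner, a non-canonical ligand best known from neurons, could be measured in all 5 arrays at NC1, in 2 at C1 and in none at C2. Its mean was -2.96 at NC1, and it was at least 3.56-fold lower at C2, taking for each C2 array the higher of the lowest detected signal and the probe's own. Dner entered the table through NC1 only, so no test is given. Dll3, a Delta ligand that acts within the cell that makes it, was detected in 2 arrays at NC1, 3 at C1 and all 5 at C2. It entered the table through C2 only, and the stage means differed by 1.53 from C1 to C2, given with no test. Dll1 and Dll4 were well above background in 1 C1 array each and in no other.

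Of the further HES, HEY and ID genes, 8 of 12 were valid, and between C1 and C2 Bhlhe40, Id2, Hes6 and Hes7 rose and Id3 fell. Of all valid probes 25.4% rose and 22.2% fell at this step. With spike-in scaling only 1 of the 8 rose and 1 fell. Bhlhe40, a HES-related repressor also known from the circadian clock, had stage means of -2.13 ± 0.22 (NC1), -0.95 ± 0.46 (C1) and 2.64 ± 0.19 (C2). It rose by 1.18 (adjusted p = 0.00081, limma) and then by 3.59 (SE 0.19; adjusted p = 1.56e-10), with no overlap between stages. Id2, an inhibitor of helix-loop-helix factors, rose by 1.76 (adjusted p = 0.000676) and then by 1.01 (adjusted p = 0.00453), but the second call was lost under 10 of 29 alternatives, among them without C1 replicate 4 (0.80, adjusted p = 0.0128) and without C2 replicates 4 and 5 (1.02, adjusted p = 0.0196). Hes6, which opposes Hes1 in neurons, rose by 0.75 (adjusted p = 0.000273) between C1 and C2, and Hes7, the segmentation clock gene, by 0.88 (adjusted p = 2.21e-05), both calls being lost with spike-in scaling. Id3 fell by 1.0. Hes5, a classical Notch target in neural cells, changed by -0.07 (SE 0.15; adjusted p = 0.727). Hes2, Hes3 and Helt were not well above background in any array, nor were Lfng, a Fringe enzyme, and Nrarp, a feedback inhibitor of Notch.

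The valid genes whose profiles over the 15 arrays lay nearest to Hey2, Rbpj and Heyl, which had the widest span of stage means among the 7 valid Notch genes, were found from the root mean square difference of centred log2 values. For Rbpj these were Idh2 (0.10) and Phf13 (0.11). For Hey2 they were Scaf11 (0.19) and Nudt11 (0.20). For Heyl the nearest, Trim47 (0.36) and Erf (0.41), lay further away. These are descriptions of likeness on the same arrays.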

How the data were processed

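RNA was hybridised to Agilent 1-colour (Cy3) arrays. The scanner files hold intensity values, deposited as processed, background-subtracted signals from Feature Extraction (10.7.1.1 per the file headers, 10.5.1.1 per the submitters' processing notes). The authors also deposited a log2 table, which differed from the log2 of these signals by 1 constant per array and gave changes close to those of centring on all gene probes. It was used for probe names and as the alternative called the authors' scaling. No column of an unmapped sample was used. Spots of a probe were averaged without control or outlier spots, taken as log2 and centred on the median of the valid probes. limma 3.58.1 in R 4.3.3 fitted 1 model over 15 arrays with stage as the factor, moderated contrasts and an F-test, two-sided with Benjamini-Hochberg adjustment at 0.01. The script was tested on simulated data. For each gene, the valid probe with the highest mean was used, or else the highest of the table.

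The members and lists were chosen with earlier results of these data known. Pathway genes were named if called between NC1 and C1, among the 10 largest changes, or by family, and further genes after their values were seen where a count was small. Alternatives were other scalings, normexp background correction on the median spot signal, probe filters, slide and replicate blocks, a threshold of 0.05, and leaving out arrays. Precision is limited by there being 5 arrays a stage.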

Additional observations from a re-analysis of the deposited data

Results flagged for a closer look

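Of 78 groups of 5 arrays examined for a lone extreme value, 2 had one, and chance gives about 1 in 20. Notch4 at NC1 had its highest value in replicate 5, at -2.94 against -3.35 to -3.31 in the other arrays, and without that array its change between NC1 and C1 was called (0.74, adjusted p = 0.00989, limma). Dll3 at C1 had its lowest value in replicate 2, at -5.78 against -4.40 to -4.10 in the other arrays.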

How the results depend on the processing

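Over 26 genes in 3 comparisons, 41 of 78 gene and comparison pairs were called, 31 kept the call under all 29 alternatives and 0 reversed, counting also Notch3, Dll3 and Dner, which the text gives without a test. Of 37 pairs not called, 7 were called under at least 1 alternative and 13 changed sign. Rbpj and Hey2 were called at C2 against both other stages under every alternative, and so were Jag2 and Hes1. For Jag2 this carries the limit that it entered the table through the stages where it was high. Of the 7 valid Notch genes, 1 was called between NC1 and C1 at a threshold of 0.05. Between C1 and C2, 4 were called with the median over all gene probes, the deposited log2 table or a threshold of 0.05. With every probe of the table or no filter, which add Notch3, Jag2 and Hes1 to those tested, 5 were called. Between NC1 and C2, 4 were called with every probe of the table or no filter. Over the 3 stages 6 were called with every probe of the table. The 5 and the 6 count Notch3, which the text gives without a test. Leaving out 1 array gave 0 to 1, 2 to 4 and 2 to 2 genes in the 3 comparisons and 2 to 3 over the 3 stages. The 4 between C1 and C2 came without C1 replicate 4, which added Notch2 and Heyl. With spike-in scaling, 14 pathway genes were called between C1 and C2 and 17 between NC1 and C2, and valid probes called were 274, 4405 and 5157 in the 3 comparisons against 437, 8253 and 8916. Between NC1 and C1 they were 271 with the median over all gene probes, 272 with the deposited table and 872 at a threshold of 0.05. Leaving out 1 array gave 4 to 5, 27 to 31 and 27 to 32 pathway genes, and 313 to 466, 7633 to 8261 and 8271 to 8993 valid probes. Without C2 replicates 4 and 5, chosen after the data were seen, 0, 2 and 2 Notch genes were called. The cause of these differences was not tested. Replicate numbers did not pair the arrays: 4 of 15 same-numbered pairs correlated above 0.1, with a median of 0.00227. With the replicate block, 0, 2, 2 and 3 Notch genes were called in the 3 comparisons and over the stages. Signals near background limit Notch3, Jag2, Hes1, Dll3 and Dner.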
